A study of Mus musculus with 298 samples.

Results

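Replication-dependent histone genes encode the bulk histones that package newly made DNA. They were chosen here by symbol alone, as the protein-coding genes of the H1 linker family (H1f1 to H1f6) and of the clustered core families H2ac, H2bc, H3c and H4c. The mouse GENCODE annotation holds 68 such genes, and 64 of them were among the 14605 genes of the expression table. H1f6, H2ac1, H2bc1 and H3c14 were not in it. The table had been limited to genes with at least 1 TPM (transcripts per 1000000, a level scaled for gene length and library size) in 5 samples. By family there were 5 H1, 17 H2A, 18 H2B, 11 H3 and 13 H4 genes. The tests below used genes with a mean of at least 1 TPM over all libraries, which kept 57 of the 64. The other 7 were H4c16, H2bc21, H1f3, H2bc9, H2ac21, H2ac12 and H3c8.

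These genes lie in clusters, have no introns in most cases and are transcribed mainly while a cell copies its DNA. Their mRNAs usually carry no poly(A) tail and end in a stem-loop bound by the protein Slbp, which takes part in the processing, translation and decay of the mRNA. Some of them also give polyadenylated mRNA in cells that have left the cell cycle. Circulating blood consists mostly of such cells, and platelets and immature red cells keep RNA without a nucleus. Chronic myeloid leukaemia (CML) is driven by the BCR-ABL fusion kinase and expands the granulocyte lineage, often together with megakaryocytes, the cells that shed platelets.

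The study followed the blood of 20 SCLtTA/BCR-ABL mice week by week. All were C57BL/6 (B6) animals of genotype tTA+/-, BCR-ABL+/-, of both sexes and 6 to 8 weeks old at the start, so the control mice carried both transgenes too. The Scl promoter element limits the transactivator to stem and progenitor cells, and tetracycline in the drinking water (0.5 g/L) keeps BCR-ABL off. Control mice stayed on tetracycline (Tet on; 3 mice, 57 libraries), and CML mice were taken off it (Tet off; 6 mice, 94 libraries). TOTO mice were Tet off for 6 weeks and then Tet on for 12 weeks (4 mice, 48 libraries). TKI mice stayed Tet off and received nilotinib, a BCR-ABL kinase inhibitor, at 50 mg/kg daily by oral gavage from week 6 to week 10 (7 mice, 99 libraries). Sampling ended at week 18 or when a mouse was moribund, and the last TKI libraries came from weeks 10 to 16. The tissue is labelled as mononuclear cells, whereas the protocols extract RNA from whole blood, and haemoglobin genes took a mean of 40.27% of TPM (0.331% to 74.77% over libraries). Ribosomal RNA had been removed instead of selecting poly(A) RNA, so mRNAs without a tail could be counted.

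The stem-loop at the mRNA end is what marks this class, so it was read from the genome (GRCm39) next to each stop codon. A run of 16 bases, namely a stem GGNNCT, a loop TTTN and a closing stem AGNNCC, was searched on the transcript strand within 100 bases after the stop codon. For members the search went further, over 1000 bases after the stop codon of each annotated transcript in turn. For other genes only the farthest stop codon was used. A match was found in 60 of the 64 genes, and in 3 of 21702 other protein-coding genes (0.0138%). Since the searches differed, these shares are not on equal terms. The match began 21 to 58 bases after the stop. The fourth loop base was C in 50 genes, A in 7 and T in 3. The genes without a match were H2ac22, H2bc21, H3c8 and H4c1. The elements of 6 genes that the results below turn on are given with the match in capitals and 5 bases on either side.
H1f2: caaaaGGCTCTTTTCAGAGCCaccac
H2bc4: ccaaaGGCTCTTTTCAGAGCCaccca
H4c9: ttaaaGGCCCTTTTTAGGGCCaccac
H2bc12: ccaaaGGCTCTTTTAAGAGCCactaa
H3c2: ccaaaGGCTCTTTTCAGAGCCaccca
H2bc15: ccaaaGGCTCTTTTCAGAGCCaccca
The capitals lie at chr13:23923495-23923510 on the plus strand for H1f2 and at chr13:23868630-23868645 on the plus strand for H2bc4. For H4c9 they lie at chr13:22225136-22225151 on the minus strand, and for H2bc12 at chr13:22220470-22220485 on the plus strand. For H3c2 they lie at chr13:23936803-23936818 and for H2bc15 at chr13:21938703-21938718, both on the plus strand. H2bc4, H3c2 and H2bc15 carry the same letters, and their levels moved differently in blood, as described below. The annotated gene ran more than 100 bases beyond the element in 25 genes and not in the other 35. It ran 9518 bases beyond it in H2bc4, 840 in H1f2, 330 in H4c9, 51 in H3c2 and 30 in H2bc12. TPM divides by the modelled length, so a level compared between genes depends on which of these ends the transcripts had.

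Among the 64 genes, 51 lie on chromosome 13 between 21899933 and 23948389, 9 on chromosome 3 between 96127181 and 96177448, 3 on chromosome 11 and 1 on chromosome 6. Many are near copies of each other. The median gene shared 49.4% of its 50-base windows exactly with another member, and 30 of the 64 shared over 50%. H2ac19 shared 100% and H2ac18 89.2% of their windows with any other member, and each was the closest member to the other. H4c17 shared 89.8% in this way, with H4c18 as its closest member. Estimated abundances of such genes can be split between copies, so their single values are uncertain. H1f2 (8.5%), H2bc4 (11.1%) and H4c9 (28.9%) had more sequence of their own. H2bc12 shared 74.2% with any other member, and H2bc24 was its closest.

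The members' levels were very unequal. H1f2, a linker histone (chr13:23922791-23924350, a single exon), had the highest mean at 250.6 TPM, with a range of 46.52 to 667.3 over the 298 libraries. H2bc4 followed at 113.2 TPM, H4c17 at 104.8, H4c18 at 77.95, H2ac19 at 77.82 and H2ac18 at 63.14. These 6 genes, the only members above 50 TPM, held 65.4% of the summed histone TPM. The highest H3 gene, H3c6, had a mean of 9.877 TPM. By family, H4 genes held 30.82% of the sum, H1 25.34%, H2B 20.25%, H2A 19.29% and H3 4.301%. In all, 14 members had a mean above 10 TPM and 43 had one between 1 and 10.

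Levels of the leading genes differed between cohorts when averaged over each mouse's weeks. H1f2 averaged 112.2 TPM in control mice (SD 10.71, n = 3; 100.5 to 121.5) and 346.8 in TKI mice (SD 53.72, n = 7; 270.5 to 426.0), so these groups did not overlap. TOTO mice lay between them at 224.3 TPM (SD 24.84, n = 4), and CML mice spread from 107.5 to 357.4 (n = 6). H2bc4 gave the same order, with 70.26 TPM in control mice (SD 3.891, n = 3), 104.8 in TOTO (SD 8.726, n = 4) and 147.9 in TKI mice (SD 28.01, n = 7). H3c6 averaged 13.18 TPM in control mice (SD 1.802, n = 3) and 7.877 in TKI mice (SD 1.70, n = 7). H4c17 overlapped between all 4 cohorts, with means of 97.17 to 119.0 TPM. Within the sequencing batch that held all 4 cohorts, H1f2 averaged 114.52 TPM in the single control mouse, 224.34 in 4 TOTO, 276.19 in 2 CML and 356.81 in 4 TKI mice. H3c6 averaged 11.75 TPM in that control mouse, 12.19 in those CML, 11.5 in those TOTO and 6.81 in those TKI mice. In another batch it averaged 9.3 TPM in 3 TKI and 7.11 in 2 CML mice, so TKI mice were not the lowest there. These averages cover different weeks in each cohort and were not tested.

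One library stood apart. In control mouse 490 at week 17, 54 of the 64 genes were at 0, the summed histone level was 190.7 TPM, and a single RNA of the signal recognition particle (Rn7s2) took 56.62% of TPM. Of the members, 36 were at 0 in 1 library and 9 in none. No change between weeks was taken from this library, though it counted in the mean TPM of each gene. For comparison, the other 16 Tet-off mice had the human BCR-ABL transgene at highs of 3.155 to 49.7 TPM. CML mouse 487 had it at 0 in 16 of its 19 libraries and at no more than 0.4085 TPM in the others. It was kept with its label, and counts without each mouse are given below.

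The summed histone level averaged 1052 TPM over all libraries (SD 405.6, 298 libraries), from 186.2 to 2243. Cohort means were 852.1 TPM in control, 979.5 in CML, 1072 in TOTO and 1225 in TKI libraries. The lowest value came from CML mouse 487 at week 14, where haemoglobin took 73.06% of TPM, and the highest from CML mouse 477 at week 3. In TKI mice the sum went from a mean of 537.8 TPM at week 0 to 1276 at week 1, 716.2 at week 3, 1306 at week 6, 1584 at week 10 and 901.3 at week 16. In TOTO mice it was 1379 TPM at week 0, 956.6 at week 6, 394.5 at week 7 and 1482 at week 8. Control mice also moved, from 1252 TPM at week 0 to 621.6 at week 1, with no switch of the transgene.

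Because haemoglobin takes so much of each library, the sum was also expressed per 1000000 TPM outside the 4 haemoglobin genes and Rn7s2. On that scale it averaged 3875 and ranged from 653 to 6125. Control mice had a mean of 3744 at week 0 and 4058 at week 1, so their fall on TPM was not seen here. Their haemoglobin share went from 38.13% to 64.8%. TOTO mice were at 2982 at week 0, 3853 at week 6, 3426 at week 7 and 4107 at week 8, a smaller swing than on TPM. TKI mice then went from a mean of 3226 at week 0 to 4972 at week 1, 4824 at week 10, 3298 at week 11 and 2473 at week 16. The fall after nilotinib was stopped thus appeared at week 11 on this scale, while the mean TPM at week 11 was still 1487. The week 11 libraries differed in composition. Haemoglobin took a mean of 28.36% of TPM in TKI mice at week 10 and 7.247% at week 11 (0.331% to 24.65%). Its part in the difference between the scales was not tested.

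**Figure D1:**
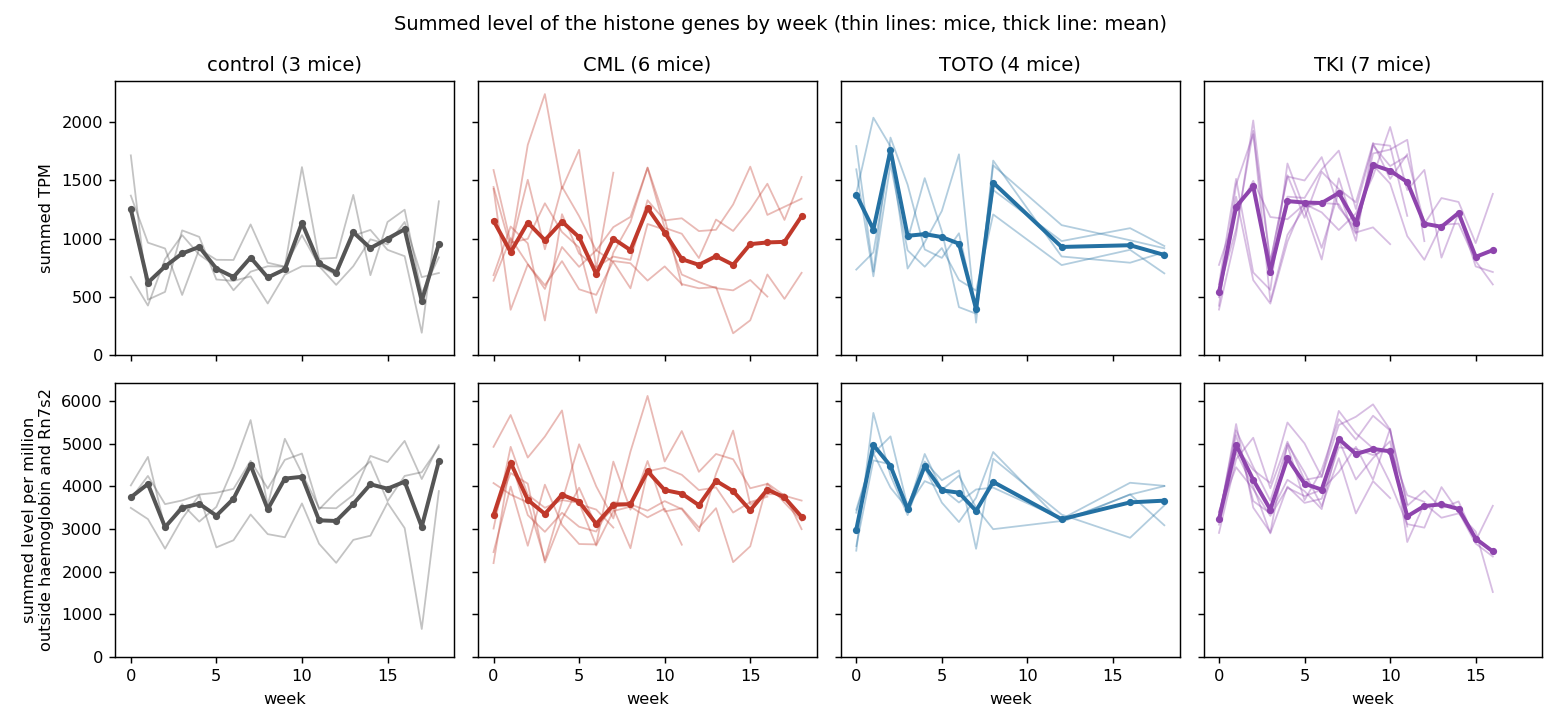
Summed level of the 64 histone genes against week in each cohort, as TPM (top) and per 1000000 TPM outside haemoglobin genes and Rn7s2 (bottom). Thin lines are mice and thick lines are cohort means. TKI mice fell from a mean of 4824 at week 10 to 2473 at week 16 on the lower scale, and the low control point at week 17 is mouse 490.

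The sum was set against Mki67, a nuclear protein of cycling cells, within each mouse over its weeks. The median Spearman correlation over the 20 mice was 0.03, from -0.66 to 0.66, and it was positive in 12 of 20. By batch it was 0.18 in 4 mice, 0.05 in 11 and -0.16 in 5. It was 0.04 on the scale outside haemoglobin and 0.34 after median-ratio rescaling, where it was positive in 17 of 20. Against haemoglobin the median was -0.83, from -0.96 to -0.37, and negative in all 20 mice, with batch medians of -0.78, -0.84 and -0.81. That sign depended on the scale: the median was 0.10 outside haemoglobin and 0.23 after median-ratio rescaling. TPM are shares of a fixed total, so a gene set and haemoglobin are tied by the scaling itself. Libraries of a mouse are not independent, and these correlations are descriptions without a test.

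The 3 libraries with the highest Mki67 had histone sums on both sides of the mean of 1052 TPM. Mki67 reached 27.67 TPM in TKI mouse 507 at week 16, with a histone sum of 1385 TPM. It was 18.94 TPM in TKI mouse 502 at week 16 with a sum of 606.2, and 11.31 TPM in CML mouse 484 at week 11 with a sum of 600.4.

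**Figure D2:**
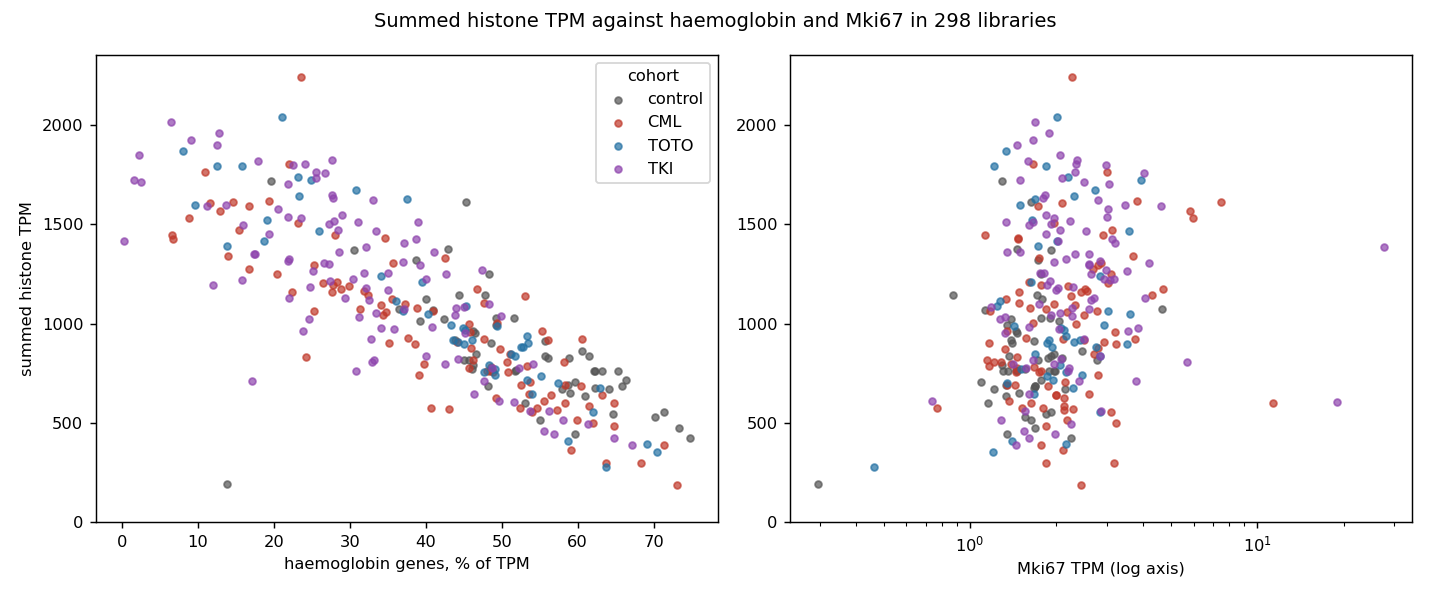
Summed histone TPM against the haemoglobin share of TPM (left, percent) and against Mki67 TPM (right, log axis) in 298 libraries, coloured by cohort. Sums fall with the haemoglobin share, while the 3 libraries with Mki67 above 10 TPM have sums of 600.4 to 1385; the control point at 13.86% haemoglobin and 190.7 TPM is mouse 490 at week 17.

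On the scale outside haemoglobin, the histone sum followed the platelet list (Pf4, Ppbp, Itga2b, Gp9, Gp1bb, Tubb1) with a median within-mouse correlation of 0.74, positive in 20 of 20 mice. For the stem and progenitor list it was 0.45. It was -0.13 for the mitosis list, -0.28 for the DNA replication list and -0.20 for the replacement histones, whose genes are expressed outside DNA replication. The sign of these 3 turned with the scale. On TPM they were 0.17, 0.67 and 0.76, and after median-ratio rescaling 0.31, -0.20 and 0.36. The platelet list gave 0.69 and 0.90 on these scales, and the stem and progenitor list 0.81 and 0.75. Mki67 itself followed the mitosis list, of which it is a member, at 0.83.

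Each member was then compared, within mice, with the mean log2 level of the genes in each of 11 blood cell lists. Members were grouped by the list with the highest median correlation on the scale outside haemoglobin. This grouping was chosen after the values were seen. All points of a mouse share its libraries, depth and scaling. The platelet group had 12 members, which held 69.8% of the summed histone TPM. A granulocyte group (neutrophil precursor, secondary granule or mature neutrophil lists) had 19 members and 8.47%. A lymphocyte group (B, T or NK cell lists) had 25 members and 18.1%, and a monocyte group 7 members and 3.56%. H2bc22 was closest to haemoglobin. On the median-ratio scale, 12 of 12 platelet and 19 of 19 granulocyte members kept their group, but only 13 of 25 lymphocyte and 2 of 7 monocyte members did. On TPM as deposited 6 of 12 platelet, 10 of 19 granulocyte, 19 of 25 lymphocyte and 7 of 7 monocyte members kept it. The share of the histone TPM closest to the platelet list was 74.6% by the median-ratio scale (15 members) and 38.5% by TPM (6 members).

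The platelet group held all 6 of the most abundant histone genes outside haemoglobin and after median-ratio rescaling, but only H1f2 and H2bc4 of them on TPM, where H4c17 was closest to a lymphocyte list and H4c18, H2ac19 and H2ac18 to the stem and progenitor list. H1f2 followed the platelet list with a median correlation of 0.97 (0.87 to 0.99 over mice), and it was 0.93 on TPM and 0.96 after median-ratio rescaling. H4c9 and H2bc4 both reached 0.91 (0.73 to 0.97 and 0.56 to 0.98). H2ac19 (0.72), H4c17 (0.71), H4c18 (0.67), H3c15 (0.64), H3c4 (0.61), H2ac6 (0.60) and H2ac18 (0.59) came next, followed by H2bc23 (0.47) and H2ac23 (0.45). H1f2 against Mki67 was at 0.10.

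Another set followed the neutrophil precursor list (Mpo, Elane, Prtn3 and Ctsg, proteins of primary granules, and Ms4a3, a membrane protein of myeloid progenitors). This list lay near the floor. Its summed level had a median of 3.165 TPM (0 to 127.3 over libraries), and only 1 of its 5 genes reached a mean of 1 TPM. H2bc12 reached 0.74 (-0.06 to 0.91 over mice), H3c8 0.71, H3c3 0.67, H3c2 0.63, H4c6 0.61, H2ac10 0.58 and H4c12 0.56. The 4 members with the highest correlation with Mki67 among all 64 were among these: H3c2 0.45 (0.02 to 0.76, positive in 20 of 20 mice), H3c8 0.40, H3c3 0.34 and H2ac10 0.33. H2bc12 stood at 0.05 against Mki67. The B cell list was closest for H2bc21 (0.83), H2ac25 (0.70), H3c7 (0.68), H3c6 (0.64), H2bc8 (0.63) and H2ac7 (0.60). Those fell to 0.48, 0.33, 0.22, 0.21, 0.12 and 0.31 after median-ratio rescaling, so the lymphocyte group rests on the choice of scale.

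**Figure D3:**
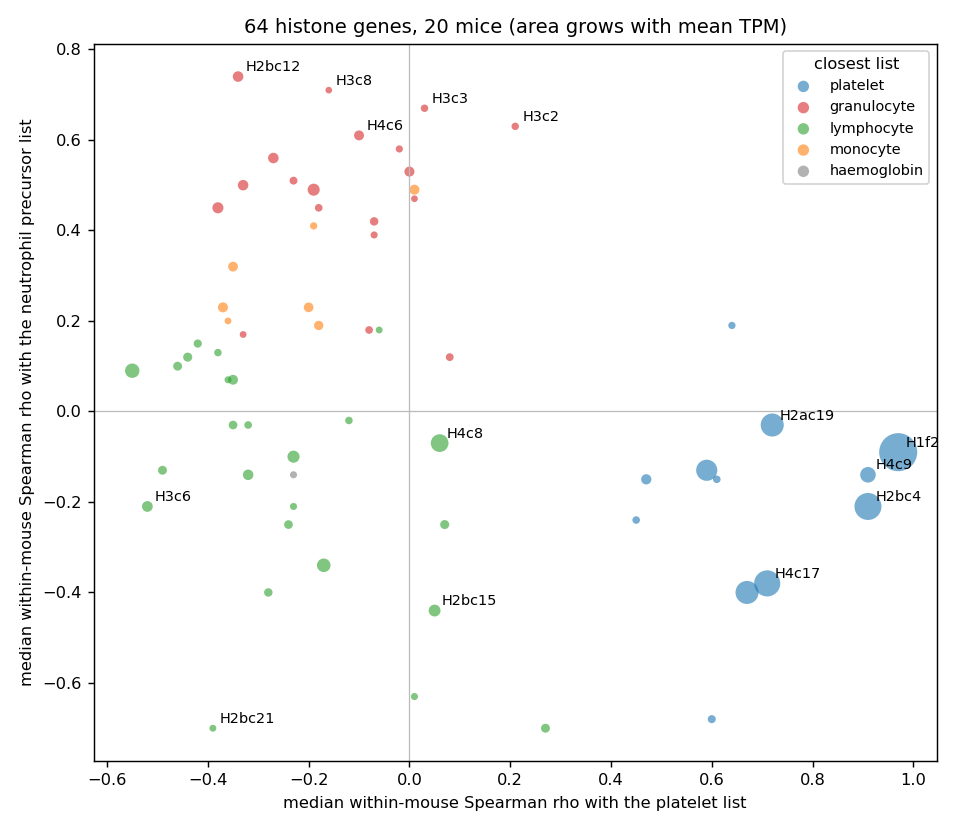
Each of the 64 histone genes by its median within-mouse Spearman correlation with the platelet list (x axis) and with the neutrophil precursor list (y axis), over 20 mice, on the scale outside haemoglobin and Rn7s2. Area grows with mean TPM and colour gives the closest list; the largest points (H1f2 0.97, H2bc4 0.91) lie at the right and H2bc12 (0.74) at the top left.

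Gene models and neighbouring genes were described without a test. The annotated gene ran more than 100 bases beyond the stem-loop in 7 of 12 platelet members with an element, 3 of 18 granulocyte, 11 of 23 lymphocyte and 3 of 6 monocyte members. Of neighbouring genes with starts at most 1000 bases apart and opposite directions, there were 14 head-to-head pairs. Their levels correlated within mice with a median of 0.44 (interquartile range 0.29 to 0.52), against 0.26 (0.01 to 0.49) in 2002 other member pairs. The top pairs were H2ac7 with H2bc7 (0.74) and H2ac6 with H2bc4 (0.68). H2ac12 with H2bc12 was at 0.30 and H2ac24 with H2bc24 at 0.12. These low values are uncertain, since H2ac12 was at 0 in 143 of the 298 libraries. H2bc24 had a median of 0.1357 TPM and shared 89.0% of its windows with other members.

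H2A and H2B genes often share a start region that holds the octamer of Oct factors, so the letters ATTTGCAT and their complement ATGCAAAT were searched on both strands of RefSeq promoters. These are windows of 300 bases on GRCm38.p6, and 54 members matched by symbol. The octamer was found in 11 of 54 members (20.4%), in 5 of 16 H2A and 6 of 13 H2B promoters, and in none of the 5 H1, 9 H3 and 11 H4 promoters. Over all genes it was in 532 of 27025 (1.97%). H2bc12, which had the largest fall in the first weeks of nilotinib, has it close to its start. The 250 bases upstream (chr13:22035571-22035820, GRCm38.p6, plus strand, from RefSeq) carry it in capitals.
H2bc12: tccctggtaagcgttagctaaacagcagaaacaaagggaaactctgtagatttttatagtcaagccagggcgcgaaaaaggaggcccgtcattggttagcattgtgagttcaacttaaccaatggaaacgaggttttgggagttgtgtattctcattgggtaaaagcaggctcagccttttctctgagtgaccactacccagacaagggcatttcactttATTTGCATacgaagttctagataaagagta

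Comparisons between weeks used each mouse's own change in log2(TPM + 1), tested across all 10519 genes with limma and Benjamini-Hochberg adjustment at 0.05. Log2 changes on this scale understate the change of genes near 1 TPM. In whole blood a smaller number of cells of a type and less RNA per cell cannot be told apart. Each comparison was repeated on 2 other scales, the median-ratio rescaling and the level outside haemoglobin and Rn7s2.

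In the first week off tetracycline (week 1 minus week 0, 17 Tet-off mice), H1f2 and H3c15 rose. H1f2 went from 148 to 309 TPM, a log2 change of 1.10 (SE 0.28, adjusted p = 0.0169), and was higher in 14 of 17 mice. In the 7 TKI mice it ran from 61.3 to 153.8 TPM at week 0 and from 279.4 to 434.1 at week 1, with no overlap. In TOTO mice it rose from 199.9 to 636.7 TPM in mouse 476, from 238.0 to 258.8 in 483 and from 110.0 to 259.5 in 545, and was 200.9 and 196.0 in 482. In CML mice it rose from 202.3 to 295.8 TPM in mouse 480, from 221.1 to 275.4 in 484, from 109.4 to 255.2 in 541 and from 97.15 to 235.3 in 542. On TPM it did not rise in CML mice 477 (300.2 and 290.6) and 487 (206.2 and 60.24). Control mice went the other way on TPM, from 99.6, 254.3 and 134.0 to 67.00, 69.18 and 104.9. The haemoglobin share, which lowers the TPM of other genes, rose in each of these mice. It went from 64.1% to 74.77% in control 488, from 19.69% to 73.37% in 489 and from 30.61% to 46.26% in 490. In CML mice 477 and 487 it went from 53.03% to 60.61% and from 6.76% to 71.36%. On the scale outside haemoglobin and Rn7s2, H1f2 was higher at week 1 in each of these control mice and in CML mice 477 and 487. The opposite directions were thus seen on TPM only. The part of haemoglobin in these H1f2 levels was not tested, and neither was the difference from control mice. H3c15, an H3 gene of the chromosome 3 cluster, went from 0.806 to 1.77 TPM (log2 change 0.63, SE 0.20, adjusted p = 0.0421). H2bc4 rose by a similar size without passing (94.1 to 160 TPM, log2 change 0.82, adjusted p = 0.0548).

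Those were 2 of 57 tested members higher and 0 lower, beside 2.79% of all genes higher and 6.47% lower. The share of members higher was close to that of all genes. The median change was -0.26 over members and -0.58 over all genes. The counts were 21 higher and 0 lower on the median-ratio scale (all genes 25.0% and 40.4%), and 14 higher and 11 lower outside haemoglobin (13.8% and 53.7%), with H1f2 and H3c15 higher on all 3 scales. Without the mouse as a block the counts were 3 higher and 6 lower, with no share over all genes to set beside them. H3c15 missed the threshold without any 1 of mice 476, 480, 484, 488, 507, 508, 512, 542 or 545 (adjusted p from 0.0506 to 0.0989). Of the platelet list all 6 genes rose (median 1.49), led by Gp1bb, a platelet adhesion receptor subunit, from 42.2 to 226 TPM (adjusted p = 5.93e-06). All 7 B cell genes fell (median -1.45). None of the 13 tested DNA replication genes or 5 mitosis genes was called, and Mki67 went from 1.63 to 2.11 TPM (log2 change 0.24, adjusted p = 0.258). How far the platelet list accounts for the rise of H1f2 was not tested. The summed platelet list in TKI mice went from 842.2 to 3043 TPM at week 0 to 7840 to 13270 at week 1.

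After 6 weeks without tetracycline (week 6 minus week 0, 17 mice), 6 members were higher and 2 lower. The transgene checked the switch: it went from 0.14 to 8.34 TPM, with adjusted p = 3.04e-10. H2bc12, an H2B gene, showed the largest rise, from 4.90 to 11.9 TPM (log2 change 1.18, SE 0.36, adjusted p = 0.0161, higher in 13 of 17 mice). H2ac10, an H2A gene, rose in 16 of 17 mice, from 0.725 to 1.83 TPM (log2 change 0.71, SE 0.19, adjusted p = 0.00835). H3c3 rose by 0.73 (SE 0.23, adjusted p = 0.0197) and H3c15 by 0.66 (SE 0.21, adjusted p = 0.0196). H4c6 and H3c2 also passed, at 0.91 (adjusted p = 0.0321) and 0.65 (adjusted p = 0.0382). H2bc15 fell from 24.0 to 9.72 TPM (log2 change -1.21, SE 0.33, adjusted p = 0.00847) and H2bc27 from 1.97 to 0.772 TPM (-0.67, SE 0.20, adjusted p = 0.0155, higher in 1 of 17 mice). H2bc15 belongs to the abundant H2B genes and H2bc27 to the scarce ones.

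All 8 kept their call and direction on all 3 scales. Over all genes 4.4% were higher and 16.1% lower, and the medians were -0.02 for members and -0.34 for all genes. The splits were 27 higher and 5 lower after median-ratio rescaling (all genes 34.5% and 38.5%) and 17 and 17 outside haemoglobin (18.5% and 51.1%). In the grouping above, 5 of the 6 risers are granulocyte members and both fallers are lymphocyte members. The same libraries set the grouping, so this is not independent. All 6 secondary granule genes rose (median 3.82), as did 6 of 7 mature neutrophil genes, and all 7 B cell genes fell (median -1.39). Hinfp and Npat, which drive transcription of histone genes, fell (adjusted p = 0.0212 and 0.0341). They were 2 of 14 tested genes of the histone mRNA processing list, whose median was -0.56. Ccnb2, a mitotic cyclin, rose by 0.76 (adjusted p = 0.00589), and Mki67 was at 0.45 (adjusted p = 0.137).

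Several of these calls depended on the first library. With week 1 in place of week 0, H2bc15 was at -0.30 (adjusted p = 0.325), H2bc27 at -0.17 (adjusted p = 0.225) and H3c15 at 0.03 (adjusted p = 0.902). H2bc4 then changed sign, to -0.66 (adjusted p = 0.0221). The count was 13 higher and 1 lower, with no share over all genes to set beside it. When the change of the 3 control mice was subtracted, 0 members were called by limma (3 at an unadjusted p under 0.05), beside 0.019% of all genes higher and 0.0% lower. The difference was 1.48 for H2bc12 (SE 0.93), where control mice changed by -0.29, and 1.31 for H2ac10 (SE 0.50), where they changed by -0.60. The median over members was 0.72, and over all genes 0.40. The median-ratio scale called 3 higher and 1 lower (all genes 8.22% and 8.04%).

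At the last CML sample, compared with week 18 of control mice, 0 members were called by limma (2 at an unadjusted p under 0.05), beside 0.0951% of all genes higher and 0.0% lower. The 2 members were chosen after their values were seen. H2bc12 went from 4.85 to 23.6 TPM in CML mice and from 3.42 to 2.96 in controls, a difference of 2.15 (SE 0.91, adjusted p = 1). H3c3 went from 1.34 to 5.01 TPM, against 1.70 to 0.896 in controls (difference 1.54, SE 0.65). The spread between CML mice was wide. H2bc12 was at 30.97 TPM in mouse 480 and 15.97 in mouse 541 at week 18, at 30.84 in mouse 484 at week 11, at 53.24 in mouse 477 at week 7, and at 6.681 in mouse 487 and 4.087 in mouse 542 at their last weeks. The secondary granule list had 3 of 6 genes higher (median 4.69).

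After 2 weeks of nilotinib (week 8 minus week 6, 7 TKI mice), 28 of 57 members fell and none rose, beside 36.0% of all genes lower and 0.418% higher. H2bc12 fell furthest. It was at 11.19 to 21.67 TPM at week 6 (median 16.44) and at 1.871 to 4.112 at week 8 (median 2.646), lower in 7 of 7 mice without overlap. The log2 change was -2.21 (SE 0.35, adjusted p = 4.62e-05), from a mean of 17.2 to 2.95 TPM. H3c2 was at 2.119 to 5.398 TPM and then at 0.5857 to 1.544, again without overlap (log2 change -1.03, SE 0.17, adjusted p = 8.49e-05). H4c6 went from 13.2 to 4.64 TPM (-1.37, SE 0.24, adjusted p = 0.000143) and H2bc11 from 11.1 to 4.61 TPM (-1.09, SE 0.22, adjusted p = 0.000675). The median over members was -0.55, and over all genes -0.41.

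By the grouping above, which used these libraries too and so is no independent evidence, 15 of 16 tested granulocyte members fell (median -0.99), 6 of 6 monocyte members (-0.83), 7 of 22 lymphocyte members (-0.48) and 0 of 12 platelet members (-0.02). Outside haemoglobin, 13 granulocyte, 4 monocyte and 1 lymphocyte members fell and 7 platelet members rose. After median-ratio rescaling 13 granulocyte and 2 monocyte members fell, and 11 platelet members and 1 lymphocyte member rose. H1f2 was at 372 TPM before and 375 after (log2 change 0.09, adjusted p = 0.785) and H2bc4 at 162 and 170. Outside haemoglobin, H1f2 and H2bc4 rose by 0.52 (adjusted p = 0.000494) and 0.60 (adjusted p = 0.00698). The splits were 12 higher and 15 lower after median-ratio rescaling (all genes 27.5% and 19.5%) and 7 and 18 outside haemoglobin (11.8% and 32.0%), and 15 members were lower on all 3 scales. H2bc12, H3c2, H4c6 and H2bc11 are among these 15.

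The marker lists moved beside them. The transgene fell by 1.45 (adjusted p = 0.0011). All 6 secondary granule and all 7 mature neutrophil genes fell (medians -2.72 and -2.68), and the summed neutrophil precursor list went from 8.846 to 15.89 TPM at week 6 to 1.816 to 4.621 at week 8. No platelet gene was called (median 0.22). Lsm10, a part of the U7 particle that cuts histone mRNA ends, fell by 1.07 (adjusted p = 0.000247), one of 7 of 14 genes lower in the histone mRNA processing list. Mki67 fell from 3.04 to 1.77 TPM in 7 of 7 mice (log2 change -0.54, adjusted p = 0.0154), but missed the threshold outside haemoglobin (-0.30, adjusted p = 0.0535) and without mouse 502 or 508 (adjusted p = 0.0631 and 0.061). Slbp went from 6.83 to 4.41 TPM (adjusted p = 0.0826), and 2 of 13 DNA replication genes and 3 of 13 histone chaperones fell. In the mitosis list 4 of 5 genes fell and 1 rose (median -0.54), and 6 of 9 replacement histones fell (median -0.55). Of 12 erythroid genes 6 fell (median -0.45). Hbb-bs, an adult beta-globin, rose by 0.68 (adjusted p = 0.0044). The part of these cell lists in the histone changes was not tested.

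After 4 weeks of nilotinib, the change from week 6 to week 10 was set against that of CML mice over the same weeks. H3c2 and H2bc12 were lower, 2 of 57, beside 3.43% of all genes lower and 0.0285% higher. The share of members lower was about that of all genes. H3c2 differed by -1.30 (SE 0.25, adjusted p = 0.00569), where CML mice changed by 0.61. H2bc12 differed by -1.95 (SE 0.53, adjusted p = 0.0356), where CML mice changed by 0.81. The median was -0.38 over members and -0.12 over all genes. H3c2 was lower on all 3 scales, and H2bc12 missed the threshold outside haemoglobin (adjusted p = 0.0519). Without the mouse as a block neither passed (adjusted p = 0.157 for H3c2 and 0.193 for H2bc12). Without CML mouse 484, H2bc12 was at -1.49 (adjusted p = 0.171): that mouse had 6.267 TPM at week 6 and 44.17 at week 10. The same held for leaving out TKI mice 502, 507, 508, 511 or 514 or CML mice 541 or 542, with changes of H2bc12 from -2.01 to -1.72 and adjusted p from 0.0532 to 0.0852. Neither gene passed with no filter on low values (adjusted p = 0.0588 and 0.142). In all, 14 members were lower after median-ratio rescaling (all genes 9.44% higher, 11.5% lower), 7 outside haemoglobin (7.92% and 8.47%), and none higher on either. All 6 secondary granule and all 7 mature neutrophil genes were lower too.

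After nilotinib was stopped, the last library (weeks 11 to 16) was compared with week 10 in the 6 TKI mice that had one. Of the 57 tested members 6 rose and 9 fell, beside 10.8% of all genes higher and 16.0% lower. Both counts lie close to these shares of all genes. H2bc12 rose in 6 of 6 mice, from a mean of 7.82 to 40.4 TPM (log2 change 2.25, SE 0.31, adjusted p = 1.71e-05). At week 10 it was at 3.460 to 13.33 TPM in the 7 mice (median 6.460), and at week 11, already, at 25.77, 29.55, 27.65, 38.19, 61.51 and 33.48 in mice 502, 507, 508, 511, 512 and 513. Every week 11 value was above every week 10 value on TPM, while the mean haemoglobin share went from 28.36% at week 10 to 7.247% at week 11. For mice 511 and 513 week 11 was the last library. Mouse 507 reached 73.02 TPM at week 16, the highest value of this gene in the series.

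H3c3, H1f5, H2ac10, H1f4 and H2ac24 also rose. H3c3 went from 1.63 to 5.43 TPM (log2 change 1.03, SE 0.30, adjusted p = 0.0104), H1f5, a linker histone, from 2.52 to 7.55 (1.04, adjusted p = 0.0122), and H2ac10 from 1.61 to 4.87 (0.88, adjusted p = 0.0201). Mouse 507 decided all 3 calls, since without it H3c3 was at 0.69 (adjusted p = 0.12), H1f5 at 0.68 (adjusted p = 0.148) and H2ac10 at 0.61 (adjusted p = 0.165). Its H3c3 level was 15.69 TPM at week 16, against 3.759 and 3.651 in mice 502 and 512.

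Of the 6 most abundant members, H1f2, H2bc4, H4c17 and H4c18 fell. H2ac19 (-0.62, adjusted p = 0.122) and H2ac18 (-0.51, adjusted p = 0.213) did not pass on TPM, but did outside haemoglobin (adjusted p = 0.0125 and 0.0154) and after median-ratio rescaling (adjusted p = 0.0296 and 0.049). H2bc4 dropped from a mean of 220 to 67.7 TPM (log2 change -2.32, SE 0.41, adjusted p = 0.00014, lower in 6 of 6 mice). It stood at 164.9, 216.1 and 278.2 TPM in mice 502, 507 and 512 at week 10, and at 23.29, 12.84 and 12.21 at week 16. H4c9 dropped from 50.5 to 17.8 TPM (-1.82, SE 0.35, adjusted p = 0.000294), to 6.248, 5.166 and 6.622 TPM in those mice at week 16. All 3 values lay below the 8.982 to 21.34 TPM of week 0. H2ac23, an H2A gene, fell by 1.35 (SE 0.30, adjusted p = 0.00114). H1f2 fell by 1.37 (SE 0.35, adjusted p = 0.00408), from 521 to 231 TPM. Without mouse 512 the change of H1f2 was -1.04 (adjusted p = 0.0503). H4c17 and H4c18 fell by 1.20 and 1.16 (adjusted p = 0.00432 and 0.00619), and the scarce genes H3c4, H2ac6 and H3c15 fell as well.

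These were 5 higher and 9 lower on all 3 scales. The splits were 12 higher and 13 lower after median-ratio rescaling (all genes 22.2% and 23.6%), and 7 and 17 outside haemoglobin (15.1% and 27.9%). The medians were 0.08 over members and -0.06 over all genes. All 9 fallers were platelet members and all 6 risers granulocyte members of the grouping above, which used these libraries too. On TPM as deposited, the fallers H4c17, H4c18, H2ac6 and H3c4 and the risers H1f4 and H1f5 were closest to lists of other groups. All 6 platelet genes fell (median -2.53). Their sum was at 4548 to 17510 TPM at week 10 and at 259.7 to 3027 at week 16. All 6 secondary granule genes rose (median 3.04), and all 7 B cell genes fell (median -2.42). Mki67 rose from 2.23 to 9.60 TPM (log2 change 1.09, adjusted p = 0.0273), in 5 of 6 mice, but not past the threshold outside haemoglobin (adjusted p = 0.134), without mouse 502 (0.76, adjusted p = 0.0909) or without mouse 507 (0.72, adjusted p = 0.112). None of the 13 DNA replication genes was called (median -0.21). Tut7, which adds uridines to histone mRNA, and Lsm10 rose by 0.97 and 0.82 (adjusted p = 0.0134 and 0.0276). They were 2 of 14 tested genes of the histone mRNA processing list, whose median was 0.06. The transgene was at 12.8 and 10.5 TPM (adjusted p = 0.454). The part of the platelet and granule lists in these changes was not tested.

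**Figure D4:**
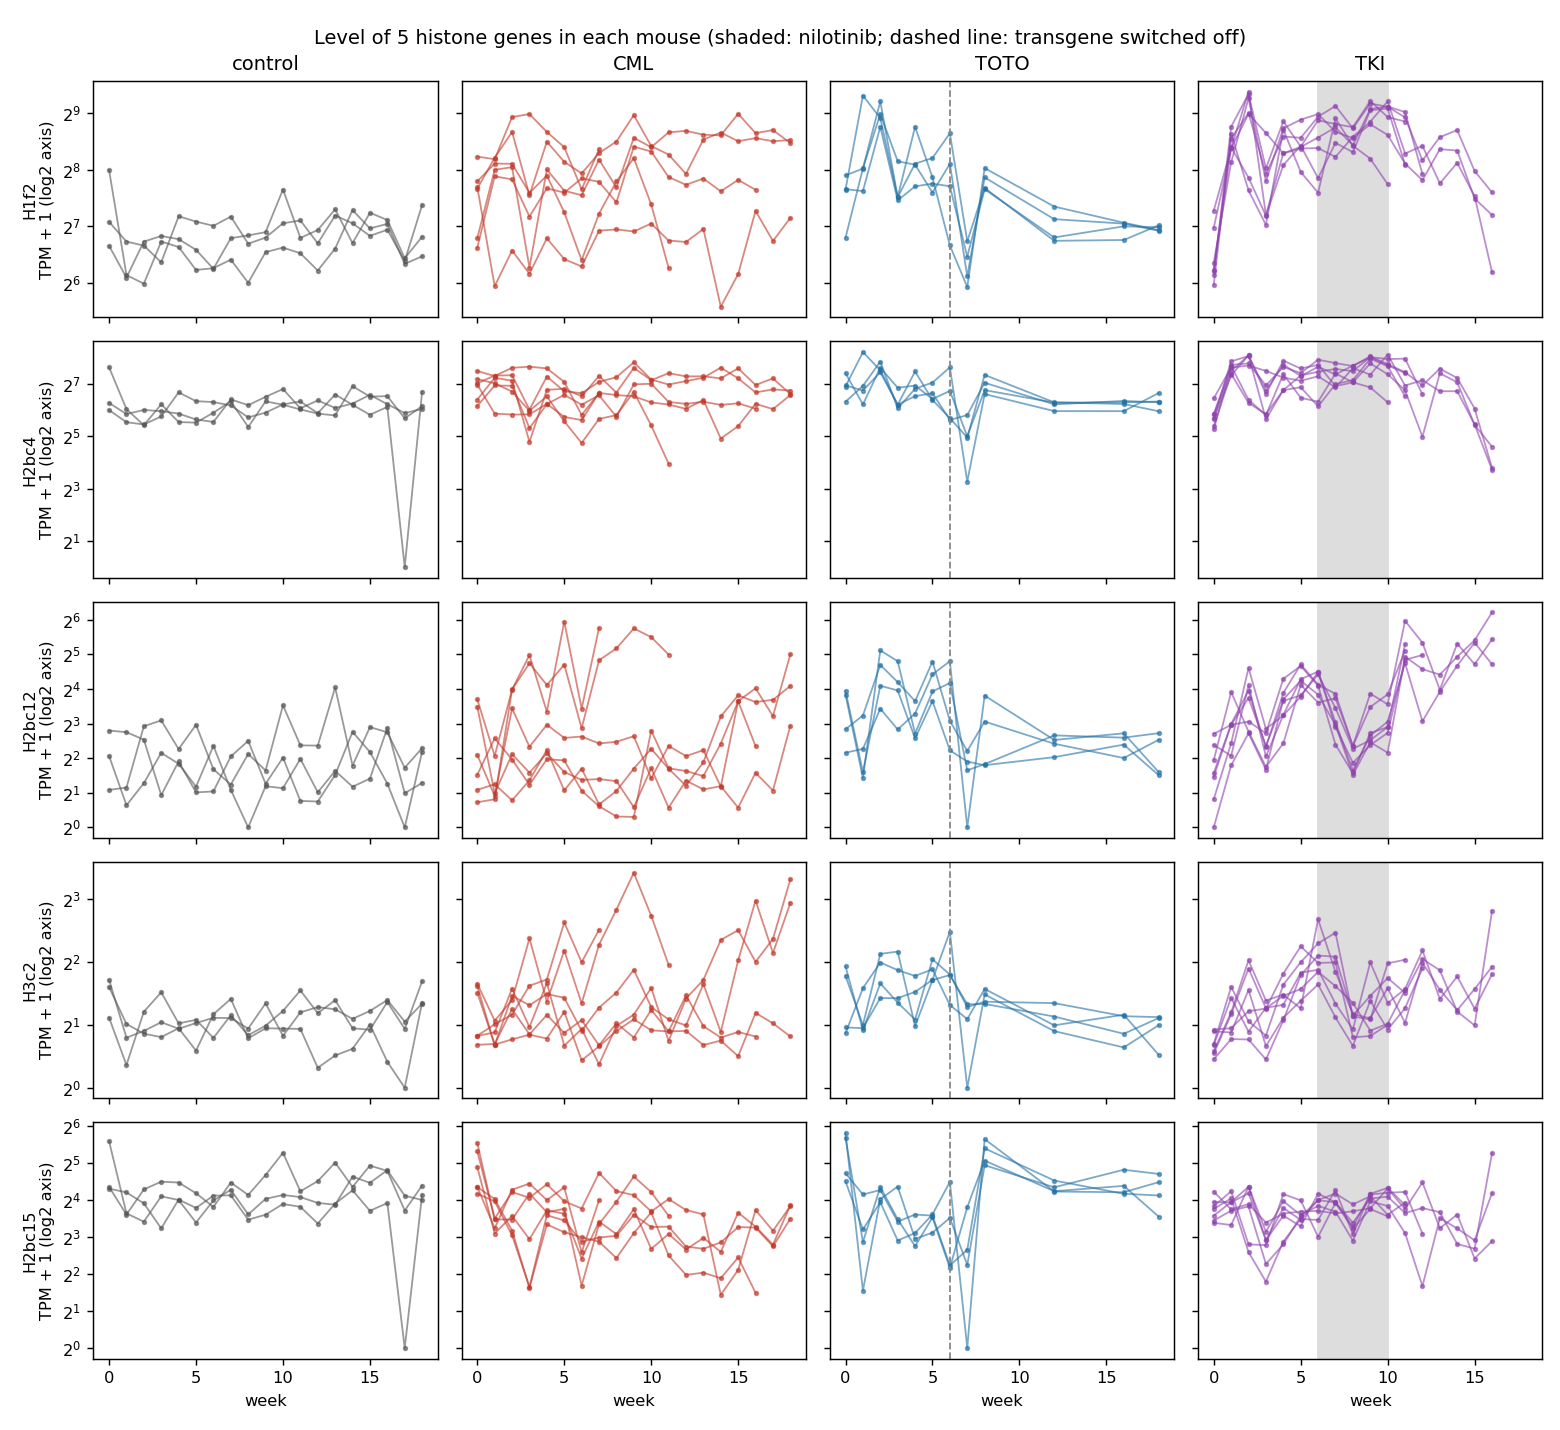
Level of H1f2, H2bc4, H2bc12, H3c2 and H2bc15 (TPM + 1, log2 axis) against week in every mouse, by cohort. Grey shading marks nilotinib and the dashed line the return to tetracycline. In TKI mice H2bc12 falls to 1.871 to 4.112 TPM at week 8 and is at 25.77 to 61.51 at week 11, while H2bc4 ends at 12.21 to 23.29 at week 16.

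When the transgene was switched off again (TOTO, week 8 minus week 6, 4 mice), 34 of 57 members rose and 2 fell, beside 69.7% of all genes higher and 4.49% lower. The members' share was below that background, and their median of 0.86 was below the 0.95 of all genes. H2bc15 was at 3.692, 3.482, 10.39 and 21.36 TPM at week 6 and at 40.86, 32.25, 29.54 and 48.74 at week 8, without overlap (log2 change 2.16, SE 0.36, adjusted p = 2.74e-05). Its week 0 values had been 25.30, 50.10, 54.68 and 21.57. H2bc27 went from 0.667 to 2.74 TPM (1.15, SE 0.16, adjusted p = 2.26e-06). H2ac6 went from 2.01 to 6.36 TPM (1.38, adjusted p = 8.43e-05) and H2bc7 from 3.16 to 11.1 TPM (1.65, adjusted p = 0.000107).

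H3c15 and H2ac10 fell. H3c15 was at 0.8715, 1.624, 1.976 and 2.808 TPM and then at 0.7708, 0.646, 0.9838 and 0.6989 (log2 change -0.63, SE 0.20, adjusted p = 0.0084). All 4 mice were lower at week 8, mouse 476 by little, and mouse 545, the highest before, decided the call: without it the change was -0.45 (adjusted p = 0.0667). H2ac10 went from 2.19 to 1.10 TPM (-0.52, adjusted p = 0.0364), lower in 4 of 4 mice, and missed the threshold without mouse 483 (adjusted p = 0.13) or 545 (adjusted p = 0.143). The transgene fell from 7.2 TPM to 0, with a log2 change of -2.72.

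The direction of most members depended on the scale here. After median-ratio rescaling 7 were higher and 18 lower (all genes 36.4% and 31.2%), and outside haemoglobin 24 and 7 (56.5% and 17.7%). The 7 higher on all 3 scales were H2bc27, H2bc7, H2ac6, H2ac7, H2ac25, H2bc15 and H3c10, and H3c15 and H2ac10 were lower on all 3. H1f2 went from 246 to 224 TPM (log2 change 0.03, adjusted p = 0.943), and was at -0.71 outside haemoglobin (adjusted p = 0.000143) and at -1.14 after rescaling. All 22 tested lymphocyte members rose on TPM (median 1.24), 18 outside haemoglobin (0.72) and 6 after median-ratio rescaling (0.27), in a grouping that used these libraries too. All 7 B cell genes rose (median 3.16), with a sum of 67.59 to 275.7 TPM at week 6 and 980.8 to 1678 at week 8. Of the histone mRNA processing list 13 of 14 genes rose (median 1.18), including Slbp, from 4.02 to 12.7 TPM (adjusted p = 0.0005). All 13 DNA replication genes and all 13 histone chaperones rose as well. The mitosis list went the other way, with 2 of 5 genes lower, and Mki67 was at -0.22 (adjusted p = 0.351). The part of the B cell list in the histone changes was not tested.

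At week 18, 12 weeks after the return to tetracycline, the change of TOTO mice since week 0 did not differ detectably from that of control mice. By limma 0 members were called (0 at an unadjusted p under 0.05), beside 0.0% of all genes in either direction. The medians were -0.29 over members and -0.30 over all genes. H2bc12 had the lowest difference, -1.04 (SE 0.98), from 9.30 to 3.56 TPM in TOTO and from 3.42 to 2.96 TPM in control mice.

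**Figure D5:**
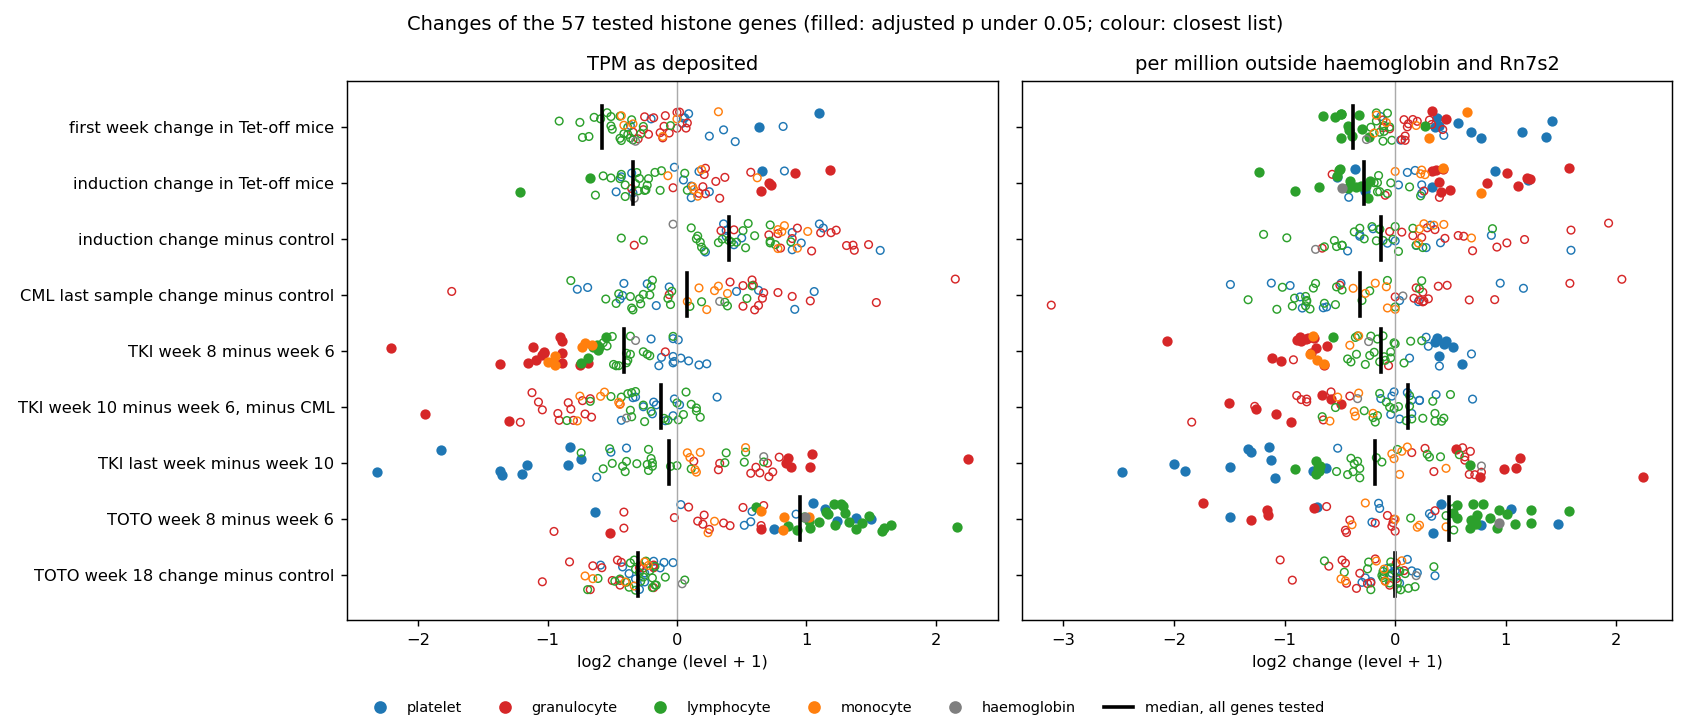
Log2 change of each of the 57 tested histone genes in 9 comparisons, on TPM (left) and per 1000000 outside haemoglobin and Rn7s2 (right). Filled points have an adjusted p under 0.05, colour gives the closest list, and black bars mark the median of all 10519 genes. After nilotinib (last week minus week 10) the 9 fallers on TPM are platelet members and the 6 risers granulocyte members. The grouping is that of the scale outside haemoglobin and used these libraries too, so it is no independent evidence.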

How the data were processed

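Whole-blood RNA from 298 libraries of 20 mice was sequenced after ribosomal RNA depletion. The authors deposited TPM for 14605 genes. The submitters' processing notes name STAR, Salmon and GRCm39, and their versions and parameters are not given in the sources used here. Salmon estimates how reads divide between similar transcripts, which bears on near-identical histone genes. Deposited TPM hold no read counts, so the depth per library is unknown and no counting interval was made. TPM summed to 989100 to 999878 per library, and 14537 gene identifiers matched GENCODE M39 without version numbers.

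Changes within a mouse were taken as log2(TPM + 1) and tested two-sided in limma 3.58.1 (R 4.3.3; lmFit, eBayes with trend) with Benjamini-Hochberg adjustment at 0.05, over 10519 genes with a mean of at least 1 TPM. The labels name the mouse of each library, so weeks are paired by mouse. Cohorts shared a fit as separate terms, except that the weeks after nilotinib used TKI mice alone. Each mouse lies in 1 of 3 sequencing batches named in the labels, which a change within a mouse removes. P-values measure the spread between mice. Alternatives were a pseudocount of 0.1, no filter, 2 other scales, no mouse block, a batch term, another first week and leaving out each mouse. On data simulated for the 6-week induction comparison (10519 genes), 46% of changes of 1 log2 unit and 99% of changes of 2 were recovered, with 8 false calls. The simulated noise was independent between genes, so shifts shared by the genes of a library were not part of it.

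Members and lists were chosen with earlier results of these data known. Named were the most abundant member of each family, the 6 most abundant of all, up to 4 members called in each direction per comparison, Mki67, Hba-a1, Hbb-bs, Slbp, the transgene and 2 to 4 genes of other lists. Members named beyond this, the closest-list grouping and the analysis without 1 control library were chosen after seeing the data. Correlations used Python 3.11.15 with scipy 1.17.1. Counts of erythroid, monocyte, T cell and NK cell genes stand with the outlying values.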

Additional observations from a re-analysis of the deposited data

Results flagged for a closer look

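The summed histone level had 4 outlying values in 42 cohort-and-week groups of 4 to 7 mice, where chance gives about 1 in 20 groups. CML mouse 487 had 388.2 TPM at week 1, when the next mouse had 919.2 and the highest 1104, and 761.3 TPM at week 10, when the next had 1077 and the highest 1175. This mouse also lacked the transgene in most libraries. TKI mouse 514 had 1097 TPM at week 9 (next 1538, highest 1822). TOTO mouse 476 had 2040 TPM at week 1 (next 881.7, lowest 675.9).

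For H2bc12 (-1.95) and H3c2 (-1.30) the log2 change from week 6 to week 10 differed between TKI and CML mice in a test of the difference itself, as given above.

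Marker lists that the results did not turn on moved as follows. In the first week 6 of 12 erythroid genes rose, and 1 of 5 monocyte genes rose and 1 fell. Over 6 weeks of induction 4 of 12 erythroid genes rose, 1 monocyte gene rose and 1 fell, and 3 of 7 T cell and 3 of 5 NK cell genes fell. In TKI mice at week 8, 4 of 5 NK cell, 3 of 5 monocyte and 6 of 12 erythroid genes fell and 1 T cell gene rose. After nilotinib all 5 NK cell, 5 of 7 T cell and 2 erythroid genes fell, and 1 monocyte gene rose and 2 fell. At week 8 of TOTO mice all 7 T cell and all 5 NK cell genes rose, 9 of 12 erythroid genes fell, and 1 monocyte gene rose and 1 fell. In these 5 comparisons no other gene of the 4 lists was called, and in the remaining 4 none was.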

How the results depend on the processing

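TPM keep no depth, so what depth limits could not be stated. Apart from the 2 other scales, the counts of the alternatives in this section stand without a share over all genes. Leaving out 1 mouse at a time gave 1 to 10 called members in the first week (main count 2), 6 to 9 over 6 weeks of induction (8), 20 to 33 for TKI week 8 (28), 1 to 7 for TKI week 10 against CML (2), 11 to 17 for the last TKI week (15) and 29 to 40 for TOTO week 8 (36), with 0 throughout for the 3 comparisons with control. In the first week the majority turned to lower without mouse 502 (8 members: 3 higher, 5 lower), 511 or 541 (10: 3 and 7 each) or 513 (5: 2 and 3), and without 514 there were 3 and 3. For the last TKI week it turned to higher without mouse 502 (16: 9 and 7) or 512 (12: 7 and 5). For TKI week 10 there were 7 without 480, and 5 without 488 or 513. The cause was not tested in these cases.

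The median-ratio scale gave 21 calls in the first week, 32 over induction, 4 against control, 14 for TKI week 10, 25 for the last TKI week and 25 for TOTO week 8, where the majority turned to lower (7 higher, 18 lower). The scale outside haemoglobin gave 25 in the first week, 34 over induction, 7 for TKI week 10 and 24 for the last TKI week. Without the mouse as a block the paired analysis lost its majority in the first week (9 calls: 3 higher, 6 lower) and TKI week 10 gave 0; no other count moved by over 1.5 times. A batch term gave 1 and 9 calls in those comparisons. For TKI week 10 the pseudocount of 0.1 gave 1 call and no filter gave 0. Week 1 in place of week 0 gave 14 calls over induction.

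The correlation of the histone sum with haemoglobin turned from -0.83 to 0.23 (median-ratio) and 0.10 (outside haemoglobin), which the shared total of TPM alone can move, and was -0.83 without the week 17 library of control 490 (an alternative chosen after seeing the data). Values that changed sign were, with week 1 as the first week, H2bc4 (-0.66) and Hbb-bs (-0.45) over induction; in TKI week 8, H4c17 (0.62 median-ratio, 0.40 outside), H4c18 (0.62) and H2ac18 (0.52); and in TOTO week 8, H1f2 (-1.14 and -0.71), H2ac19 (-0.10), H2bc4 (-0.64), H4c17 (-0.02) and H2ac18 (-0.57). Over named genes, 751 alternative values kept direction and call, 52 newly passed and 37 no longer passed; leaving out mice gave 2226, 29 and 49.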
